A study of Mus musculus with 16 samples.

Results

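To ask which genes of keratinocytes without integrin α3β1 change when laminin-332 (LN332) is added, the 4 LN332-treated and the 4 vehicle-treated libraries of MKα3− cells were compared. These 8 libraries are the members of this comparison, chosen by their labelled cell line and treatment, of 16 libraries in the series. The MKα3− line is an immortalized line of keratinocytes from mice, null for the integrin α3 subunit. The other 8 libraries came from MKα3+ cells, the null line with human α3 put back, and enter here only to estimate the spread and to compare the 2 responses. Every group was kept on collagen-coated dishes in a low-calcium medium at 33 °C with 8% CO2, and received recombinant full-length LN332 at 0.02 mg/mL or an equal volume of its vehicle (a buffer with glycine and sodium azide) for 16 to 24 h. The line is a single immortalized model, and whether it is 1 clone is not given in the sources used here. The study calls its in vitro data points experimental replicates and does not state whether the 4 of a group were separate cultures, so p-values measure the spread between these libraries, which may be technical.

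LN332 is a basement membrane protein made of several laminin chains, and keratinocytes secrete it themselves. In the epidermis it anchors basal cells through integrin α6β4 in hemidesmosomes and supports cell movement through integrin α3β1. Cells without α3β1 keep other receptors that can bind laminins, among them α6β4, dystroglycan and syndecans, and it is the response of such cells that is described here.

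Total counts were between 21735708 and 29338370 in the LN332-treated and between 27327730 and 28325042 in the vehicle-treated MKα3− libraries. Levels below are CPM, counts scaled to the library total, with scaling factors from the trimmed mean of M-values method (TMM). The mouse *Itga3* gene, which encodes the missing subunit, was counted at 315, 218, 317 and 221 CPM in LN332 replicates 1 to 4 and at 285, 211, 303 and 237 CPM in vehicle replicates 1 to 4, so its count does not check the null label. All 10 keratinocyte markers were measured. Their summed level was between 10010 and 20130 CPM with LN332 and between 9298 and 14760 CPM with vehicle. Of markers of other cells, 7 of 10 fibroblast, 6 of 8 immune, 5 of 7 endothelial and 2 of 8 melanocyte genes were measured. Their summed levels with LN332 and vehicle were 22.25 to 35.63 and 14.39 to 34.54 CPM for fibroblasts, 48.07 to 96.84 and 42 to 92.12 CPM for immune cells, 5.704 to 7.821 and 3.79 to 8.205 CPM for endothelium, and 4.702 to 7.487 and 5.915 to 10.57 CPM for melanocytes, overlapping in each case. LN332 replicate 1 stood apart, with 1.42% of its counts on the ribosomal RNA gene *Rn45s* against 0.503% to 0.654% in its 3 fellow libraries, and with 2.83% against 0.915% to 1.54% on mitochondrial genes.

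LN332 changed 44 of 14474 genes in MKα3− cells, 35 higher and 9 lower, with limits of 0.05 on the limma-voom adjusted p-value and 0.5 on the size of the log2 fold change. This is 0.304% of the genes tested, 0.242% higher and 0.0622% lower. The matrix-associated signaling protein *Ccn2* had the largest rise, 4.02-fold, and the other 34 rises had log2 fold changes between 0.51 and 1.53. The falls were between -1.04 and -0.51 on the log2 scale. Between the groups, the libraries did not overlap for 34 of the 35 higher genes and for all 9 lower genes, against 2.29% higher and 2.66% lower among all genes. *Eif2s2*, a translation initiation factor gene with a log2 fold change of 0.51, was the exception, with LN332 replicate 3 level with vehicle replicate 2 at 153 CPM. The 44 genes moved the same way in all 4 pairs of libraries with the same replicate number, against 13.1% higher and 14.9% lower among all genes. They were called on these same libraries, so their separation and shared direction follow in large part from that choice and are not separate evidence. In bulk RNA, a change in the number of cells that carry a transcript and a change in transcript per cell cannot be told apart.

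The number of genes rested on single libraries and on the fit. With only the MKα3− libraries in the fit, 1 gene passed, *Ccn2*. Without LN332 replicate 1 the count was 150, with 101 higher and 49 lower, and 41 of the 44 genes passed again. It was 118 without LN332 replicate 3, 3 without LN332 replicate 2, 3 without LN332 replicate 4, 34, of which 3 were lower, without vehicle replicate 1, 16 without vehicle replicate 4, 5 without vehicle replicate 2 and 1, again *Ccn2*, without vehicle replicate 3. Scaling by library size only, without TMM, lowered the median log2 fold change of all genes by 0.077, and 24 genes were then higher and 50 lower. *Ccn2* passed in all 8 fits that left out a library. A block for the replicate number gave 259 genes, 157 higher and 102 lower, and its counts by list are given with the alternatives below.

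**Figure D1:**
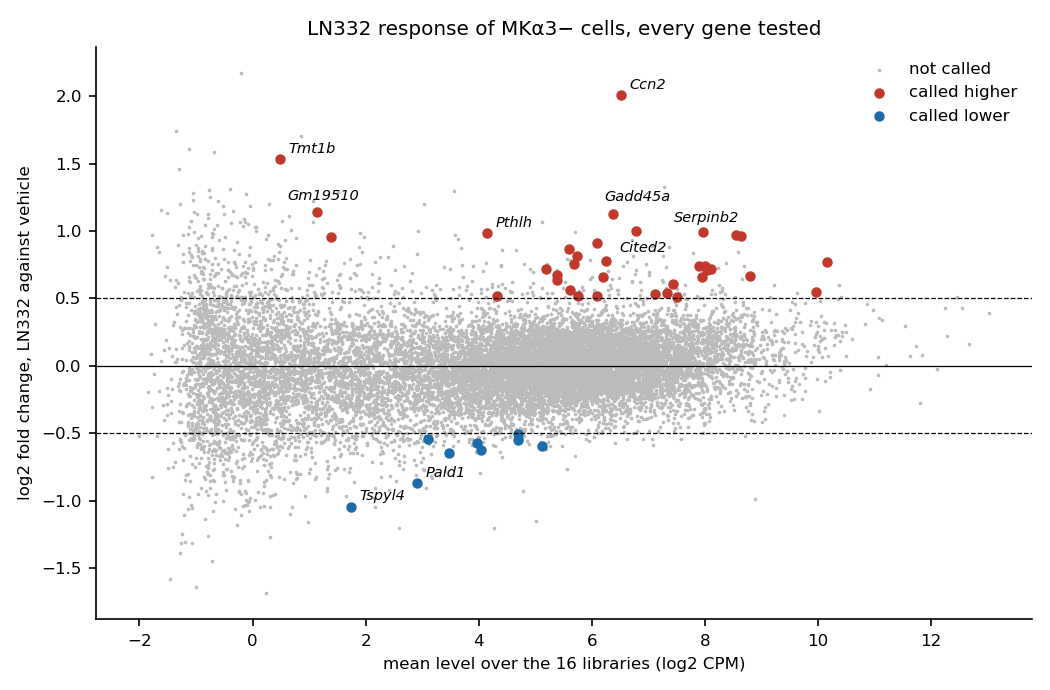
Log2 fold change of LN332 against vehicle in MKα3− cells (y axis) by mean log2 CPM over the 16 libraries (x axis), 1 point per gene, with the 35 genes called higher in red, the 9 called lower in blue and the 0.5 limits dashed. *Ccn2* lies highest of the called genes at 2.01, and the called genes that fell lie between -1.04 and -0.51.

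Among the genes that rose, 4 belong to a list of 24 YAP-TEAD targets, of which 23 were measured. YAP and TEAD form a transcription complex that turns on such genes when cells spread and are under tension. *Ccn2* (Entrez 14219, chromosome 10, 24595442 to 24598683, mm10), which encodes connective tissue growth factor, was at 112, 102, 164 and 160 CPM in LN332 replicates 1 to 4 and at 35.2, 26.7, 27.6 and 44 CPM in vehicle replicates 1 to 4. Its lowest LN332 library was above its highest vehicle library, and it rose most in replicates with number 3. The log2 fold change was 2.01 (standard error 0.22, limma-voom adjusted p = 6.83e-04). Exons of *Gm15270* lie on the opposite strand of *Ccn2*, and whether counting used the strand is not given in the sources used here, so reads of the pair could have been mixed.

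*Gadd45a* (Entrez 13197, chromosome 6, 67035096 to 67037407), a stress-induced regulator of growth arrest, was at 89.4, 115, 86.9 and 177 CPM with LN332 and at 51.0, 53.2, 44 and 58.5 CPM with vehicle. LN332 replicate 4 was the highest, and the other 3 were still above every vehicle library. The log2 fold change was 1.13 (standard error 0.21, limma-voom adjusted p = 0.0326), and *Gadd45a* overlaps an opposite-strand transcript, E230016M11Rik. Its relative *Gadd45b* (Entrez 17873, chromosome 10, 80930091 to 80932204) was at 546, 718, 428 and 487 CPM against 333, 337, 183 and 271 CPM. Both groups were lowest in replicate 3 and the groups did not overlap. The log2 fold change of *Gadd45b* was 0.97 (standard error 0.17, limma-voom adjusted p = 0.0275). *Amotl2* (Entrez 56332, chromosome 9, 102717091 to 102733418), whose angiomotin-family product binds YAP, was at 214, 213, 159 and 171 CPM with LN332 and at 157, 111, 81.4 and 111 CPM with vehicle. Here the margin was narrow, since vehicle replicate 1 was only just under LN332 replicate 3. Its log2 fold change was 0.74 (standard error 0.15, limma-voom adjusted p = 0.0359).

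To show the DNA in front of these genes, the 250 bases before the start of 3 of the 4 are given from RefSeq (GRCm38.p6, 5′ to 3′ on the gene's strand). They are from *Gadd45a* (chr6:67037408-67037657, minus strand), *Gadd45b* (chr10:80929841-80930090, plus strand) and *Amotl2* (chr9:102717554-102717803, plus strand). *Ccn2* had no such window in the sequences used and is not in the motif counts below. Capitals mark the 1 match to the TEAD motif GGAATG, read on the minus strand and 65 bases before the RefSeq transcript start used for *Amotl2*, which lies inside the gene's span given above, downstream of its first base.
Gadd45a: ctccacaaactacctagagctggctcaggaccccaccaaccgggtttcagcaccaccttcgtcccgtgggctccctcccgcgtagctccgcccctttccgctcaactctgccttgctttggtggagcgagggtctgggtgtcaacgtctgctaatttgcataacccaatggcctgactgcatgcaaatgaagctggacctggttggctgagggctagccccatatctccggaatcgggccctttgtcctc
Gadd45b: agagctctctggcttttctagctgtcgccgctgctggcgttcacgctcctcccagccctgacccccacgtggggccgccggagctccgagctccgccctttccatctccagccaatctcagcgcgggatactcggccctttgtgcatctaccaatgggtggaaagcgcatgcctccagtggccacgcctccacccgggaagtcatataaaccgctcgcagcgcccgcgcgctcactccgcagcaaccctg
Amotl2: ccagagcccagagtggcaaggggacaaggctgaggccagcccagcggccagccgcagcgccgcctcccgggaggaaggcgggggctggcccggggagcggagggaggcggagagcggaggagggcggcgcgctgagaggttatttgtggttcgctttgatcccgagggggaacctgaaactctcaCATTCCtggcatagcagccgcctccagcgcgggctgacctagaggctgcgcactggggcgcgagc
On both strands of such windows, GGAATG was found in 13.0% of 10903 genes and in 3 of the 25 higher genes with a window, which were *Amotl2*, *Stambpl1* and *Tnnt2*. The AP-1 motif TGANTCA was found in 6.02% of all windows and in 3 of the 25, those of *Gm19510*, *Prss23* and *Serpinb2*. A CArG box, the site of the SRF factor, was found in 1.36% of all windows and in 1 of the 25, that of *Fhl2*. A match is a description of the letters and not of binding.

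The YAP-TEAD list was chosen with earlier results of these data known. Its members *Ccn2* and *Cdc42ep3* are among the study's picks on these same samples, so its counts are not independent evidence. Across the whole list, 4 of the 23 measured YAP-TEAD genes passed higher and 0 lower. The groups did not overlap for 9, each higher with LN332, and 15 were higher in all 4 numbered pairs while 0 were lower in all 4. Over all genes tested, 0.242% passed higher, and 2.29% were higher and 2.66% lower without overlap. In all 4 pairs, 13.1% of all genes were higher and 14.9% lower. The median log2 fold change was 0.36, against -0.0056 over all genes. Among members that did not pass, the matricellular protein *Ccn1* was at 331, 239, 220 and 254 CPM with LN332 and at 190, 146, 108 and 179 CPM with vehicle. That is a log2 fold change of 0.76 (standard error 0.19, limma-voom adjusted p = 0.092). *Nt5e*, an ectonucleotidase, had 0.53 (adjusted p = 0.0505, limma-voom) and the factor *Tead1* itself 0.34 (adjusted p = 0.34). At the other end were *Axl*, a receptor tyrosine kinase, with -0.18 (adjusted p = 0.61), and *Arhgef17* with -0.14 (adjusted p = 0.70, limma-voom).

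The other genes that rose are given by what their products are known to do, a grouping made after their values were seen and not tested. *Cited2* (Entrez 17684, chromosome 10, 17723228 to 17725674), a binding partner of the CBP and p300 coactivators, was at 96.8, 96.0, 98.7 and 143 CPM with LN332 and at 52.4, 55.7, 42.2 and 66.2 CPM with vehicle. LN332 replicate 4 was far above the other 3, which lay close together. That was a log2 fold change of 1 (standard error 0.18, limma-voom adjusted p = 0.0285). *Sox9* (Entrez 20682, chromosome 11, 112782210 to 112787757), a factor of hair follicle progenitors, was at 59.6, 73.2, 62.1 and 43.2 CPM against 38.0, 34.2, 25.0 and 33.1 CPM. It was lowest in LN332 replicate 4 and rose least in that numbered pair. Its log2 fold change was 0.87 (standard error 0.15, limma-voom adjusted p = 0.0275). *Klf6*, a zinc finger factor, had a log2 fold change of 0.66 (SE 0.13) and *Arid5a*, which also binds RNA, 0.64 (SE 0.11). *Sfn*, which encodes stratifin, a scaffold protein of keratinocytes and a p53 target, was at 1248, 1340, 1646 and 1957 CPM with LN332 and at 838, 784, 994 and 987 CPM with vehicle, with a log2 fold change of 0.77 (standard error 0.15, limma-voom adjusted p = 0.0352).

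Some of the higher genes encode secreted or surface proteins. *Serpinb2* (Entrez 18788, chromosome 1, 107500892 to 107525600), the plasminogen activator inhibitor of epithelial cells and macrophages, was at 255, 315, 311 and 396 CPM with LN332 and at 145, 146, 133 and 226 CPM with vehicle. Replicate 4 was the highest in both groups, and vehicle replicate 4 lay well above the other vehicle libraries. The log2 fold change was 0.99 (standard error 0.16, limma-voom adjusted p = 0.0269), and exons of *Serpinb10* overlap it on the same strand. *Pthlh* (Entrez 19227, chromosome 6, 147252109 to 147264013), the parathyroid hormone-related peptide of keratinocytes, was at 26.2, 34.7, 33.1 and 37.6 CPM against 12, 15.5, 15.5 and 25.4 CPM. The lowest LN332 library and the highest vehicle library were almost level. Its log2 fold change was 0.98 (standard error 0.18, limma-voom adjusted p = 0.0326).

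*Prss23* (Entrez 76453, chromosome 7, 89507783 to 89527187), a secreted serine protease, was at 55.6, 67.6, 68.9 and 83.2 CPM with LN332 and at 28.4, 34.6, 32.6 and 53.9 CPM with vehicle. In each group replicate 1 was lowest and replicate 4 highest. Its log2 fold change was 0.91 (standard error 0.17, limma-voom adjusted p = 0.0326), and Prss23os lies on the opposite strand. *Muc16* (Entrez 73732, chromosome 9, 18495445 to 18674821), a membrane mucin, was low, at 3.57, 4.94, 4.56 and 4.20 CPM against 1.72, 2.44, 2.09 and 2.73 CPM. Even so the groups did not overlap, with a log2 fold change of 0.95 (standard error 0.18, limma-voom adjusted p = 0.0326). *Tnfrsf12a*, the receptor of the cytokine TWEAK, was at 307, 261, 274 and 324 CPM with LN332 and at 204, 153, 182 and 161 CPM with vehicle, a log2 fold change of 0.74 (standard error 0.11, limma-voom adjusted p = 0.0147).

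Others encode proteins of the cytoskeleton or cell cortex. *Tnnt2* (Entrez 21956, chromosome 1, 135836315 to 135852268) encodes cardiac troponin T, a protein of muscle filaments. It was at 611, 466, 591 and 764 CPM with LN332 and at 306, 264, 315 and 349 CPM with vehicle, and replicate 2 was lowest and replicate 4 highest in both groups. This gave a log2 fold change of 0.97 (standard error 0.15, limma-voom adjusted p = 0.0147). *Basp1*, which encodes a protein of the inner plasma membrane, had 0.72 (SE 0.10) and *Phldb2*, whose product anchors microtubules to the cell cortex, 0.71 (SE 0.12). *Fhl2*, a LIM-domain protein of focal adhesions and nuclei, was at 179, 184, 192 and 268 CPM against 146, 130, 134 and 151 CPM, with LN332 replicate 4 far above the others. Its log2 fold change was 0.54 (standard error 0.11, limma-voom adjusted p = 0.0403). *Krt8*, a keratin of simple epithelia, was at 810, 728, 753 and 940 CPM with LN332 and at 585, 504, 528 and 590 CPM with vehicle, a log2 fold change of 0.55 (standard error 0.10, limma-voom adjusted p = 0.0326), and Gm36026 lies on its opposite strand.

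A further 4 encode inhibitors or targets of signaling pathways. *Dok2*, an adaptor that dampens receptor tyrosine kinases, had a log2 fold change of 0.77 (SE 0.14), and LN332 replicate 4, at 127 CPM, was above the rest of its group (79.7 to 86.6 CPM). *Dusp8*, a MAP kinase phosphatase, had 0.71 (SE 0.14), *Phlda1*, a target of ERK signaling, 0.61 (SE 0.11) and *Socs6*, a suppressor of cytokine signaling, 0.51 (SE 0.10). The adjusted p-values of these 4 genes were between 0.0275 and 0.0359 in limma-voom, and transcripts lie on the opposite strand of *Dusp8* and *Phlda1*.

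Besides *Muc16*, 2 of the 12 largest rises were in genes at low levels. *Tmt1b* (Entrez 71664, chromosome 10, 128958277 to 128960988), a thiol methyltransferase gene, was at 2.1, 2.65, 1.36 and 1.42 CPM with LN332 and at 0.632, 0.915, 0.496 and 0.518 CPM with vehicle. It rested on 14 to 75 counts per library, and the log2 fold change of 1.53 had the widest error of the 44 genes (standard error 0.33, limma-voom adjusted p = 0.0496). Its exons overlap those of *Itga7*, an integrin subunit gene on the opposite strand, which itself had a log2 fold change of -0.03 (adjusted p = 0.986). The predicted gene *Gm19510* (Entrez 100503021, chromosome 15, 59788417 to 59794959) was at 3.96, 3.78, 3.16 and 5.67 CPM against 1.82, 2.37, 1.56 and 1.52 CPM, a log2 fold change of 1.14 (standard error 0.21, limma-voom adjusted p = 0.0326). Further higher genes had log2 fold changes between 0.52 and 0.82. Among them were the ubiquitin ligase gene *Trim16* (0.82), *Smim3* (0.68), the retinoic acid-induced receptor gene *Gprc5a* (0.67), the deubiquitinase gene *Stambpl1* (0.66), *Speer3* (0.56), the small GTPase genes *Rap2b* (0.53) and *Rab27b* (0.52), and *Coq10b* (0.52). *Trim16* shares exons with *Fbxw10* on the same strand, *Rap2b* and *Coq10b* have neighbours on the opposite strand, and *Speer3* belongs to a family of near-identical copies, so these counts are uncertain.

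**Figure D2:**
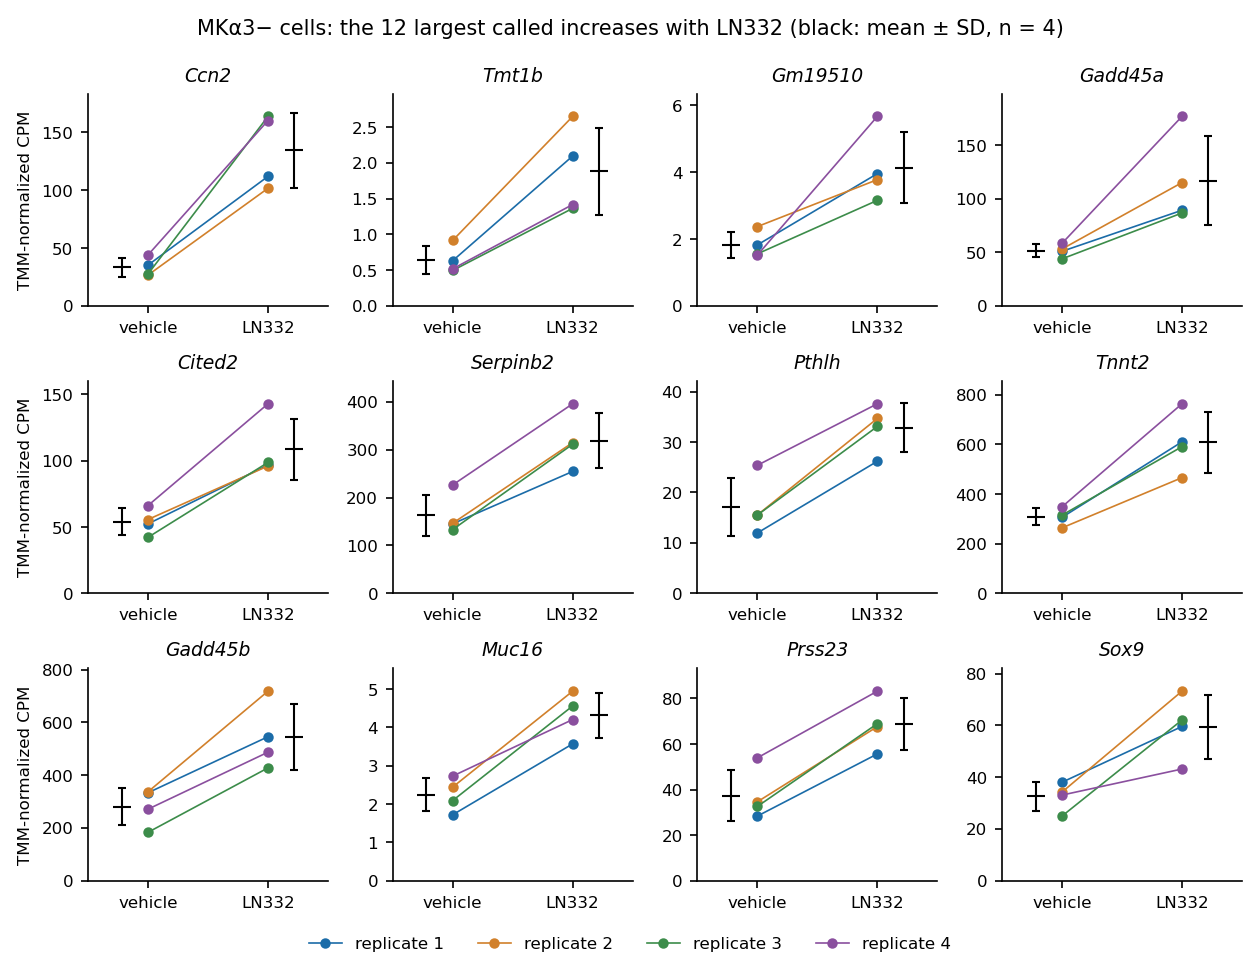
TMM-normalized CPM (y axis, from 0) of the 12 genes with the largest rises in vehicle- and LN332-treated MKα3− libraries (x axis), with a colored point for each replicate, lines joining libraries of the same number, and black bars for the mean ± SD of 4. In each panel the 4 LN332 points lie above the 4 vehicle points, as for *Ccn2* with 102 to 164 CPM above 26.7 to 44 CPM.

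The 9 genes that fell were at lower levels, with vehicle means between 4.04 and 42.6 CPM, and are not members of any gene list used here. *Tspyl4* (Entrez 72480, chromosome 10, 34297421 to 34301320), of the testis-specific protein Y-like family, was at 1.78, 2.15, 2.23 and 1.61 CPM with LN332 and at 4.25, 4.00, 3.65 and 4.28 CPM with vehicle. Here the log2 fold change was -1.04 (standard error 0.20, limma-voom adjusted p = 0.0331), with 33 to 124 counts per library and *Gm47512* on the opposite strand. *Pald1* (Entrez 27355, chromosome 10, 61319656 to 61383546), a gene for the phosphatase-domain protein paladin, was at 3.57, 2.30, 2.84 and 1.76 CPM against 4.95, 4.20, 4.92 and 4.84 CPM. Vehicle replicate 2 was the lowest of a tight group, and every LN332 library was below it. Its log2 fold change was -0.87 (standard error 0.18, limma-voom adjusted p = 0.0477).

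*Slc5a6* (Entrez 330064, chromosome 5, 31036036 to 31048924), the vitamin transporter for biotin and pantothenate, fell from 22.7, 20, 23.1 and 23.3 CPM in vehicle replicates 1 to 4 to 15.3, 13.6, 16.2 and 12.7 CPM in LN332 replicates 1 to 4. LN332 gave a log2 fold change of -0.62 (standard error 0.10, limma-voom adjusted p = 0.0256). *Cul7* (Entrez 66515, chromosome 17, 46650338 to 46664364), the scaffold of a ubiquitin ligase, fell from between 40.9 and 44.7 CPM to 32.5, 26.0, 32.1 and 22.9 CPM, with -0.59 (standard error 0.11, limma-voom adjusted p = 0.0281). The F-box gene *Fbxo10*, another part of ubiquitin ligases, had -0.57 (SE 0.12), with LN332 libraries between 9.78 and 10.7 CPM and vehicle libraries between 12.2 and 17.9 CPM. *Mfsd12*, a lysosomal transporter gene, had -0.64 (SE 0.14), *Ccdc157* -0.55 (SE 0.11), *Tex9* -0.54 (SE 0.11) and *Ift140*, a gene of transport within cilia, -0.51 (SE 0.10). Their adjusted p-values were between 0.0359 and 0.0478 in limma-voom. Neighbours overlap *Slc5a6*, *Mfsd12*, *Ccdc157* and *Tex9* on the opposite strand. Gene composition moved with direction. The median GC content was 55.5% in the 9 lower genes, 50.3% in the higher genes and 50.0% in all 13194 genes with a value, and the Spearman correlation of the log2 fold change with GC content across these genes, which are not independent, was -0.221. With GC content and length in the fit, a correction chosen after seeing the data, 3 genes were lower and 29 higher. Of the 44 genes 25 passed again, so calls were lost among the higher genes as well. Of the 9 lower genes *Tspyl4* and *Slc5a6* passed again. The 7 lower genes that did not pass kept log2 fold changes between -0.73 and -0.42.

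**Figure D3:**
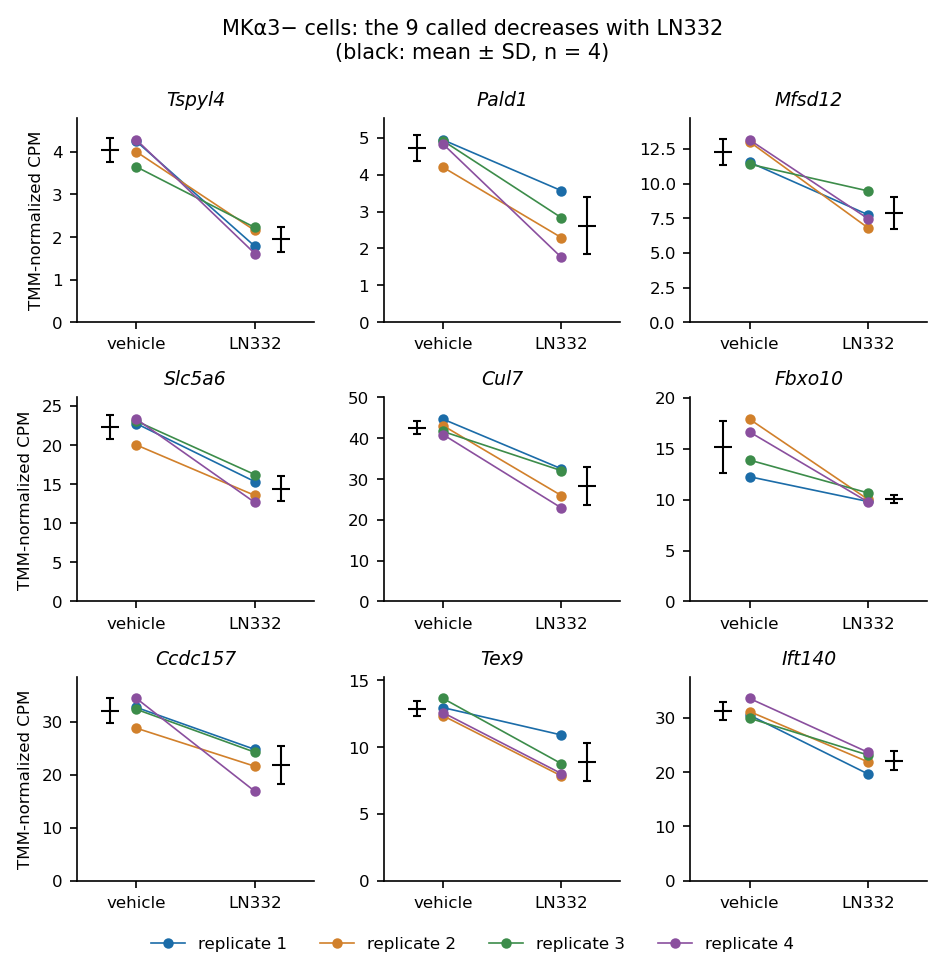
TMM-normalized CPM (y axis, from 0) of the 9 genes that fell, in vehicle- and LN332-treated MKα3− libraries (x axis), with a colored point for each replicate, lines joining libraries of the same number, and black bars for the mean ± SD of 4. Every LN332 point lies below every vehicle point, as for *Slc5a6* with 12.7 to 16.2 CPM under 20 to 23.3 CPM.

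The genes listed as receptors for laminins did not pass the threshold in these cells. Of 10 genes listed as laminin-binding receptors, *Itga3*, *Cd151* and *Bcam* among them, 0 passed in limma-voom and the median log2 fold change was -0.02. In all 4 numbered pairs 1 gene was higher and 1 lower, against 13.1% and 14.9% of all genes. *Itga6*, the α6 subunit, was at 103, 177, 320 and 146 CPM with LN332 and at 134, 180, 250 and 204 CPM with vehicle. Replicate 3 was the highest in both groups, and the groups overlapped throughout, with a log2 fold change of -0.14 (95% interval -0.72 to 0.44, adjusted p = 0.883, limma-voom). Its partner *Itgb4* was at 699, 743, 1217 and 571 CPM against 693, 736, 1050 and 839 CPM, a log2 fold change of -0.09 (95% interval -0.51 to 0.34, adjusted p = 0.903, limma-voom). *Itgb1*, the β1 subunit shared by many integrins, had 0.08 (95% interval -0.29 to 0.46) and the dystroglycan gene *Dag1* -0.39 (95% interval -1.04 to 0.27). *Sdc4*, a heparan sulfate proteoglycan of focal adhesions, was at 244, 244, 262 and 240 CPM with LN332 and at 215, 206, 191 and 216 CPM with vehicle. The groups did not overlap, and the log2 fold change was 0.26 (standard error 0.08, limma-voom adjusted p = 0.181). *Bcam*, a receptor of another laminin family, had -0.33 (adjusted p = 0.509).

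The cells' own LN332 chains and hemidesmosome genes were measured as well, with 0 of 9 passing, 0 without overlap between the groups and a median log2 fold change of -0.01. The chain genes *Lama3* and *Lamb3* had log2 fold changes of 0.26 (95% interval -0.07 to 0.58) and 0.16 (95% interval -0.14 to 0.47). *Lamb3* was highest in LN332 replicate 3, at 1490 CPM, with the rest of that group at 1007 to 1077 CPM, against 888 to 1175 CPM with vehicle. *Col17a1*, the transmembrane collagen of hemidesmosomes, ranged from 604 to 2010 CPM with LN332 and from 722 to 1744 CPM with vehicle, and its interval of -1.05 to 0.57 is the widest of these genes. Among 11 measured subunits of other integrins 0 passed, and *Itga2*, the collagen-binding α2 subunit, had the largest estimate, 0.83 (adjusted p = 0.51, limma-voom).

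The study singled out 7 genes on these same samples, so their direction here is not independent evidence. In MKα3− cells 1 of the 7, *Ccn2*, passed. *Cdc42ep3* (Entrez 260409, chromosome 17, 79333723 to 79355091), an effector of the GTPase Cdc42, was at 16.2, 21.2, 16.2 and 31.9 CPM with LN332 and at 11.8, 10.8, 9 and 13.4 CPM with vehicle. The groups did not overlap and the log2 fold change was 0.86, with an adjusted p just above the threshold (0.0594, limma-voom) and Gm17315 on the opposite strand. *Dbn1*, which encodes the actin-binding protein drebrin, was at 7.95, 14.0, 6.57 and 15.8 CPM against 5.51, 5.09, 4.00 and 8.70 CPM. It was higher with LN332 in each numbered pair although the groups overlapped, with 0.86 (95% interval 0.26 to 1.46, adjusted p = 0.197, limma-voom). *Nedd9*, a scaffold of focal adhesion signaling, was at 14.5, 16.2, 18.8 and 21.0 CPM with LN332 and at 13.4, 13.2, 11.4 and 15.5 CPM with vehicle, a log2 fold change of 0.38 with a 95% interval of 0.09 to 0.67. The caveolar gene *Cavin3*, at 1.73 to 4.50 CPM with LN332 and 1.08 to 2.34 CPM with vehicle, had a log2 fold change of 0.42 with a standard error of 0.38. The transcription factor gene *Sox11* rested on 13 to 36 counts per library and had an interval from -0.58 to 1.02, so a response as large as that of *Cited2* lay within it.

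Among 32 gene lists, 8 had a member that passed in the fit without a block for the replicate number and 24 had none. No list member passed lower in that fit. All lists were chosen with earlier results of these data known. Of the 35 higher genes, 25 were in no list. In the list of 27 measured SRF-MRTF targets and contractile actin genes, *Fhl2* passed. There 13 members were higher and 1 lower in all 4 numbered pairs, 6 were higher and 1 lower without overlap, and the median log2 fold change was 0.23. Among all genes the shares were 13.1% and 14.9% in all 4 pairs, and 2.29% and 2.66% without overlap. *Tpm1*, a tropomyosin, had a limma-voom adjusted p of 0.033 but a fold change below the limit (0.48 on the log2 scale), and cytoplasmic β-actin, *Actb*, had 0.43 (adjusted p = 0.14). *Tagln*, a marker of contractile cells, had -0.33 (adjusted p = 0.42).

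The plasminogen activation list, with 12 members measured, had *Serpinb2* as the 1 gene that passed. In all 4 pairs 6 members were higher and 1 lower, where 13.1% of all genes were higher and 14.9% lower. The tissue factor gene *F3* had 0.64 (adjusted p = 0.154) and *Plau*, the urokinase gene, 0.13 (adjusted p = 0.86, limma-voom). Among 23 genes of the TGF-β list 0 passed, 6 were higher and 3 lower in all 4 pairs, and *Pmepa1*, a feedback gene of that pathway, was at 304, 255, 285 and 526 CPM with LN332 and at 152, 147, 147 and 241 CPM with vehicle (log2 fold change 0.98, adjusted p = 0.0843, limma-voom). Of 18 immediate-early genes 1 passed, *Klf6*. *Egr1*, a growth factor-induced factor, was at 83.9, 19.5, 12.8 and 6.79 CPM with LN332 and 131, 44.3, 29.4 and 12.3 CPM with vehicle. It was lower with LN332 in each numbered pair, while both groups had a wide spread and overlapped (log2 fold change -0.93, adjusted p = 0.65, limma-voom). The ERK output list had 1 of 19, *Phlda1*, and the list of 10 basal identity factors had *Sox9*.

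The median log2 fold change was 0.31 for simple epithelial and 0.39 for basal and stress keratins. Of 5 simple epithelial keratins *Krt8* passed, its partner *Krt18* had 0.38 (adjusted p = 0.44) and *Krt7* 0.31 (adjusted p = 0.20, limma-voom). Of 7 basal and stress keratins 0 passed, although 4 were higher and 1 lower in all 4 pairs (13.1% and 14.9% of all genes). *Krt16*, a keratin of wounded skin, was at 53.5, 60.1, 110 and 93.0 CPM with LN332 and at 39.2, 45.6, 56.6 and 52.1 CPM with vehicle (log2 fold change 0.66, adjusted p = 0.135, limma-voom), while the basal keratin gene *Krt5* had 0.08 (adjusted p = 0.92).

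In the cholesterol list 0 of 22 passed, and the median was 0.43. Yet 13 members were higher and 1 lower in all 4 numbered pairs, against 13.1% and 14.9% of all genes. *Fdft1*, squalene synthase, was at 111, 204, 150 and 191 CPM with LN332 and at 67.2, 131, 85.6 and 125 CPM with vehicle. Numbers 2 and 4 were high in both groups and the groups overlapped, with a log2 fold change of 0.70 (adjusted p = 0.151, limma-voom). *Abcg1*, a sterol efflux pump, was at 2.95, 1.02, 1.65 and 0.978 CPM against 7.54, 2.88, 3.12 and 2.21 CPM, a log2 fold change of -1.20 (adjusted p = 0.216, limma-voom). The 21 genes of the endoplasmic reticulum list also gave 0, and its members were divided. In all 4 numbered pairs 6 were higher and 6 lower, where 13.1% of all genes were higher and 14.9% lower. Without overlap 0 were higher and 2 lower, against 2.29% and 2.66% of all genes. The members named next were picked after their values were seen. The amino acid stress genes *Trib3* (1.32), *Chac1* (0.93), *Atf4* (0.84), *Asns* (0.56) and *Ddit3* (0.54) were higher in all 4 pairs, with adjusted p-values from 0.23 to 0.34, while the chaperone genes *Calr* (-0.52) and *Pdia6* (-0.32) were lower without overlap, with adjusted p-values of 0.14 and 0.28 in limma-voom.

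Chemokines and cytokines gave 0 of 22, with 7 higher and 7 lower in all 4 pairs, where 13.1% of all genes were higher and 14.9% lower. *Ccl2*, which attracts monocytes, was at 33.0, 8.69, 23.1 and 14.1 CPM with LN332 and at 73.9, 22.7, 52.0 and 30.2 CPM with vehicle. Every LN332 library was below the vehicle library of its number, while the groups overlapped (log2 fold change -1.20, adjusted p = 0.25, limma-voom). *Cxcl10*, an interferon-induced chemokine, had -1.15 (adjusted p = 0.285), and the 26 interferon-stimulated and antigen presentation genes had a median of -0.10 with 0 passing. In the list of 29 DNA replication and mitosis genes 0 passed, the log2 fold changes lay between -0.28 and 0.17, and 3 members were higher and 13 lower in all 4 pairs. The 14 Notch pathway genes had a median of -0.22 with 0 passing and 6 lower in all 4 pairs.

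In the lists not yet described 0 members passed. The p53 list does not hold *Sfn*, which passed and is named above as a p53 target. The median log2 fold change was 0.30 over 13 terminal differentiation genes, 0.24 over 7 caveolar genes, 0.19 over 23 glycolysis and hypoxia genes, 0.16 over 15 epithelial-mesenchymal genes, 0.16 over 12 cyclins and their inhibitors, 0.15 over 18 p53 targets, 0.12 over 13 junction genes, 0.11 over 16 matrix metalloproteinases and inhibitors and -0.09 over 13 EGF family genes. The medians of 28 focal adhesion adaptors (0.04), 24 guidance cues (0.02) and 25 other matrix genes (0.0017) were close to that of all genes, and these 3 and the ERK output list (0.08) fell below 0 when libraries were scaled by their size only.

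**Figure D4:**
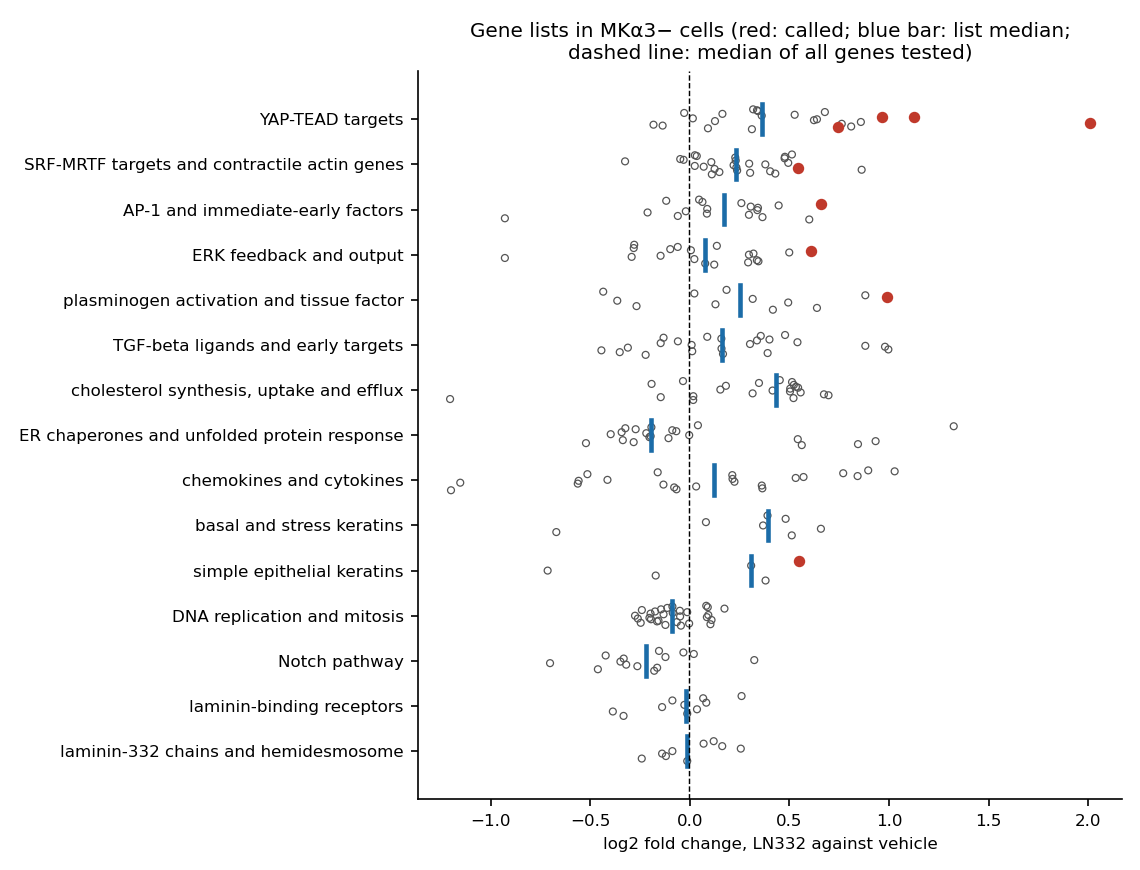
Log2 fold change of LN332 against vehicle in MKα3− cells (x axis) for every measured member of 15 gene lists (y axis), with members that passed in red, other members as open circles, the list median as a blue bar and the median of all genes dashed. The YAP-TEAD list holds 4 of the 9 red points and has a median of 0.36, and the receptor and LN332 lists center on the dashed line.

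To test whether the response depends on α3β1, the LN332 responses of the 2 lines were compared within the same fit. The MKα3+ response alone held 27 genes, 0.187% of those tested. Of the 44 genes, 6 passed in both lines (*Ccn2*, *Serpinb2*, *Muc16*, *Phldb2*, *Arid5a* and *Phlda1*), and 0 of all 14474 genes had a difference between the responses past the threshold, with 164 genes (1.13%) at an unadjusted p under 0.05 in limma-voom. The quasi-likelihood test of edgeR and DESeq2 gave 0 genes too, with 168 and 207 at an unadjusted p under 0.05, and over all alternatives that number was between 107 and 1050. The median log2 fold change of the 35 higher genes was 0.74 in MKα3− and 0.56 in MKα3+ cells, and that of the 9 lower genes was -0.59 and -0.31. The genes were chosen for their size in MKα3− cells, so the larger size there was built into the choice. For *Ccn2* the difference, MKα3− minus MKα3+, was 0.55 (95% interval -0.09 to 1.20). That of *Serpinb2* was -0.09 (95% interval -0.59 to 0.40) and that of *Arid5a* 0.01 (95% interval -0.32 to 0.34), so a difference of over 0.6 lay outside the intervals of these 2 genes.

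For 6 of the 44 genes the interval of the difference did not hold 0. *Tnnt2* had a log2 fold change of 0.97 in MKα3− and 0.35 (SE 0.14) in MKα3+ cells, a difference of 0.62 (unadjusted p = 0.00683, adjusted p = 0.9999, limma-voom). *Sfn* had 0.77 and 0.29, with a difference of 0.48 (unadjusted p = 0.0341). *Pald1* had -0.87 and -0.18 (unadjusted p = 0.00457), *Ccdc157* -0.55 and -0.16 (unadjusted p = 0.0261), *Slc5a6* -0.62 and -0.31 (unadjusted p = 0.0479) and *Socs6* 0.51 and 0.21 (unadjusted p = 0.0494, limma-voom). None of the 6 passed after adjustment over all genes. The smallest unadjusted p-values at a mean log2 CPM of at least 1 were those of *Depdc7* (0.40 in MKα3−, -0.04 in MKα3+), *Ebag9* (0.20 and -0.22) and *Tnnt2* in the positive direction. In the negative direction they were those of *Camk2g* (-0.19 and 0.18), *Pald1* and *Shroom1* (0.14 and 0.73), where *Shroom1*, a regulator of the apical cytoskeleton, passed in MKα3+ cells (adjusted p = 0.0466, limma-voom) and not in MKα3− cells.

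**Figure D5:**
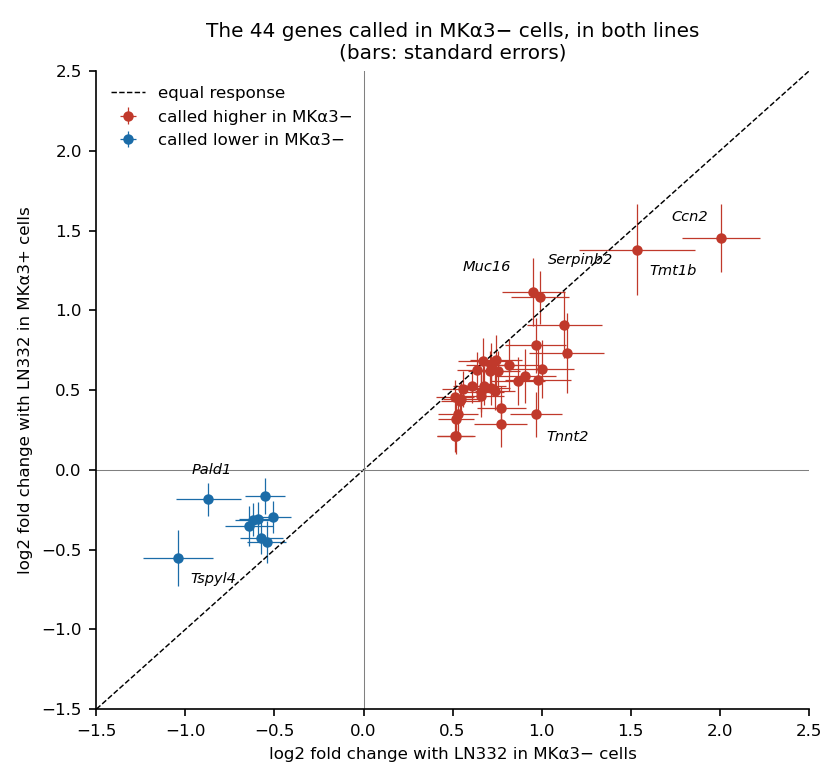
Log2 fold change with LN332 in MKα3− cells (x axis) and in MKα3+ cells (y axis) of the 44 genes that passed in MKα3− cells, with bars for standard errors and a dashed line for an equal response. *Ccn2* lies at 2.01 and 1.45, and *Tnnt2* and *Pald1* lie farther from the line than most, at 0.97 and 0.35 and at -0.87 and -0.18.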

How the data were processed

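RNA was extracted with Trizol and sequenced on an Illumina NovaSeq X Plus. Rsubread aligned the reads to mm10, and the authors used featureCounts, with the Entrez gene models it comes with, to make the deposited raw counts, not normalized, for 14474 genes in 16 libraries. The submitters' processing notes also name bcl2fastq 2.20. The study's filter, over 0.5 CPM in 3 libraries or more, removed 0 genes, since each gene in the file was over it in 6 or more. At this depth a library holds between 21735708 and 29338370 counts. Vehicle replicates 3 and 4 of MKα3− cells differed by more than sampling noise, with a chi-square per degree of freedom of 24.2. For the other pairs of MKα3− replicates that measure had no value.

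After the study's methods, edgeR 4.0.16 gave the TMM factors, and the counts were tested with limma-voom (limma 3.58.1, R 4.3.3). The 16 libraries entered 1 fit with a coefficient per group and no replicate term, and p-values were adjusted by Benjamini-Hochberg over all genes. The CPM of a gene were also compared by a two-sided exact permutation test of 4 against 4 libraries, whose smallest p is 0.0286, and 43 of the 44 genes were at it. Since the 44 genes were called on these same libraries, that count is not separate evidence. On data simulated from the real means, 72% of 200 genes changed by a log2 fold change of 1 in MKα3− cells were recovered with 3 false calls, and 49.5% in the difference between the lines with 8 false calls. With no changed gene, 0 were called. Each gene was drawn around 1 mean over all 16 libraries, with no effect shared by a replicate number and no library set apart. These rates may therefore not hold for the real libraries or for genes low in MKα3− cells.

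The comparison, the 32 gene lists and the 5 marker lists were chosen with earlier results of these data known. The genes named were drawn from all that passed, the study's picks, the receptors, and the LN332 and hemidesmosome genes. They were also drawn from list members that passed without or with a block for the replicate number. Many list members that passed only with that block are not named, so absence here does not mean that a gene did not pass. Also named were the 10 largest changes each way among genes called with that block whose groups do not overlap. The last source was the 3 smallest p-values of the difference in each direction. These last 2 sources were limited to a mean log2 CPM of at least 1. Other list members were named after their values were seen, and a few genes, 1 of them among the study's picks, are not reported here. The alternatives tried were DESeq2 1.42.0 and the quasi-likelihood test of edgeR, other normalizations, filters, weights, fold limits and fits, and each MKα3− library left out in turn. Positions, overlaps, GC content and promoters were taken from GRCm38.p6 (RefSeq and GENCODE), with 97.2% of genes matched to positions.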

Additional observations from a re-analysis of the deposited data

Results flagged for a closer look

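Of 234 groups of 4 MKα3− libraries tested (the named genes and the library measures), 17 held a library that stood far off from its 3 fellows, and chance at 1 in 20 gives about 11.7. LN332 replicate 1 accounted for 5 of these, vehicle replicate 4 for 3 and LN332 replicate 4 for 3.

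LN332 replicate 1 had 1.42% of counts on *Rn45s*, against 0.503% to 0.654% in the other LN332 libraries. In the same library *Egr1* was at 83.89 CPM against 6.794 to 19.53, *Atf3* at 121.9 against 87.09 to 91.94, *Cdsn* at 8.575 against 17.06 to 18.02 and *Adam12* at 52.65 against 98.92 to 107.8 CPM. In LN332 replicate 4, *Cited2* was at 142.9 CPM against 96.02 to 98.71, *Dok2* at 126.7 against 79.72 to 86.6 and *Fhl2* at 267.7 against 179.3 to 191.8 CPM. *Efnb2* was at 123.4 CPM in LN332 replicate 2 against 76.51 to 81.12, and *Lamb3* at 1490 CPM in LN332 replicate 3 against 1007 to 1077.

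In vehicle replicate 4, *Serpinb2* was at 226.3 CPM against 133.1 to 146.3, *Pmepa1* at 240.9 against 147 to 151.6 and *Sox11* at 1.105 against 0.673 to 0.712 CPM. In vehicle replicate 2, *Purg* was at 4.035 CPM against 3.281 to 3.404 and *Pald1* at 4.204 against 4.836 to 4.948. In vehicle replicate 1, *Dag1* was at 135.5 CPM against 207.1 to 217.3 and *Abcg1* at 7.545 against 2.211 to 3.117. The part of RNA quality, culture or library preparation in these values was not tested.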

How the results depend on the processing

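No gene of the 44 changed sign under any alternative, and *Ccn2* passed in each of them. Leaving out 1 MKα3− library gave 1 to 150 genes, 1 to 101 higher and 0 to 64 lower. The count of all, higher and lower genes was 165, 109 and 56 with DESeq2, 74, 24 and 50 with library size alone, and 123, 87 and 36 with sample quality weights. It was 1, 1 and 0 with only the MKα3− libraries, 6, 5 and 1 at a minimum log2 fold change of 1, and 57, 42 and 15 with no minimum. Counts from edgeR (47 genes), DESeq2's size factors, no filter and at least 10 counts in every library stayed within 1.5 times of 44. With GC content and length corrected, an alternative chosen after seeing the data, the count was 32, with 29 higher and 3 lower. The cause of these shifts was not tested. The difference between the lines gave 0 genes in every fit that held both lines, and its genes at an unadjusted p under 0.05 numbered 168 with edgeR, 457 with quality weights, 449 without LN332 replicate 3, 517 with the replicate block (smallest adjusted p 0.176 in limma-voom) and 1050 with the block and number 1 left out.

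The labels give the 4 groups the same replicate numbers, and nothing states what a number shares. The deviations of same-numbered MKα3− libraries had correlations of 0.192, 0.507, 0.3 and -0.0118 for numbers 1 to 4, so the numbers were not taken to pair the libraries, since 1 of the 4 was not over 0.1. Other values favored a shared number: 5 of the 8 MKα3− and 13 of all 16 libraries were closest to their own number, and the mean correlation over all groups was 0.255 for the same number and -0.0796 for other numbers. Blocking on the replicate number gave a count of 259, with 157 higher and 102 lower, and it held all 44 genes. It was 242, 158 and 84 with the block in edgeR, 208, 123 and 85 with the number as a random effect, 178, 126 and 52 with the block in only the MKα3− libraries, and 169, 131 and 38 with the block and the GC and length correction. Without both MKα3− libraries of number 1, 2, 3 or 4, the block gave 428 (236 higher, 192 lower), 65 (51 higher, 14 lower), 214 (100 higher, 114 lower) and 199 (145 higher, 54 lower). By list, the block gave 9 YAP-TEAD genes higher, 6 cholesterol genes higher and 1 lower, 3 endoplasmic reticulum genes higher and 1 lower, 1 chemokine or cytokine gene higher and 3 lower, and 2 basal and stress keratins higher. Genes past the threshold only with the block included *Ccl2* (adjusted p = 3.56e-06, limma-voom), *Cdc42ep3* (0.0164), *Ccn1* (0.04), *Pmepa1* (0.00612) and *Morn4* (0.00623).

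At this depth a called gene rested on at least 14 counts in each MKα3− library, and genes with wide intervals, such as *Sox11* and *Cavin3*, could hold responses that 4 libraries do not resolve.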

Other observations

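Outside the 44 and the gene lists, 11 genes are named because they were among the 10 largest changes each way with the replicate block whose groups did not overlap, at a mean log2 CPM of 1 or more. *Morn4* was at 17.7, 30.4, 18.0 and 26.8 CPM in LN332 replicates 1 to 4 and at 4.81, 14.9, 5.77 and 16.7 CPM in vehicle replicates 1 to 4 (log2 fold change 1.29, adjusted p = 0.0816, limma-voom). *Cd200*, an immune-inhibitory surface glycoprotein, was at 21.1, 17.3, 22.1 and 32.7 CPM in LN332 replicates 1 to 4 and at 11.7, 11.6, 9 and 13.7 CPM in the vehicle libraries (log2 fold change 0.97, adjusted p = 0.104, limma-voom). *Serpinb1a*, an inhibitor of neutrophil proteases, was at 3.14, 5.40, 3.70 and 4.11 CPM against 2.25, 2.07, 2.13 and 1.87 CPM (log2 fold change 0.95, adjusted p = 0.0843, limma-voom). In the other direction, *Sema4c*, a semaphorin, was at 7.45, 5.23, 7.47 and 3.57 CPM against 9.30, 10.3, 13.0 and 8.88 CPM (log2 fold change -0.82, adjusted p = 0.079, limma-voom), and *Slc7a4*, of the cationic amino acid transporter family, at 8.38, 6.29, 8.61 and 4.15 CPM against 13.5, 11, 12.8 and 11 CPM (log2 fold change -0.83, adjusted p = 0.0644, limma-voom). The others named by this rule were *Ogdhl* (-0.78), *Zdhhc23* (-0.77), *Zfp324* (-0.71), *Lix1l* (-0.93), *Tmem53* (-0.80) and *Purg* (-0.65), with adjusted p-values between 0.0607 and 0.141 in limma-voom.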
